A study of Homo sapiens with 6 samples.

Results

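The genes that drive or hold back the passage of cells from G1 into S phase were followed in newly made and total mRNA of MOLM-13 cells exposed to the CBP/p300 inhibitor C646. The 10 members were chosen by name, namely the cyclins CCND2, CCND3, CCNE1, CCNE2 and CCNA2, the kinases CDK2, CDK4 and CDK6, the phosphatase CDC25A and the inhibitor CDKN1B, which encodes p27. All 10 were found among the 25420 genes of the deposited tables. MOLM-13 is an established human acute myeloid leukaemia cell line that carries an MLL-AF9 fusion and an internal tandem duplication of FLT3. C646 competes with acetyl-CoA at the acetyltransferase domain of CBP and its paralogue p300, both of them transcriptional co-activators. Cells received 10 µM C646 or the solvent DMSO for 2 h, and 100 µM 4-thiouridine (4sU) was present during the last 1 h in both groups, with 3 libraries per group. In SLAM-seq, 4sU built into new transcripts is alkylated and then sequenced as C instead of T. A read carrying T > C conversions (a T > C read) is therefore taken to stem from a transcript made during labelling, and reads with a single conversion are counted among them. The comparison asks how much new RNA of these genes was made under C646, and how far their total mRNA had moved after the same 2 h.

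Mitogens raise the D-type cyclins, which bind CDK4 and CDK6 and begin to phosphorylate the retinoblastoma protein RB1. E2F factors are thereby released and drive the genes of cyclin E, cyclin A and DNA replication, and cyclin E with CDK2 completes the phosphorylation. CDC25A removes inhibitory phosphates from CDK2, whereas p27 binds cyclin E-CDK2 and blocks it. Leukaemias with MLL fusions are known for their dependence on CDK6, and several members of the network, CCNE1 and CDC25A among them, have short-lived mRNAs or proteins.

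Between 7252597 and 10225448 reads per library fell on annotated 3′ UTRs, of which 477824 to 833410 were T > C reads. The T > C reads were 8.74 to 8.86% of the reads in DMSO and 6.34 to 6.71% in C646. All 8 myeloid markers examined were present, with a summed level of 3331 to 3661 CPM (reads scaled to the size of the library) in DMSO and 3524 to 3743 CPM in C646, most of it from LYZ. Among them SPI1, a myeloid transcription factor, fell from 167.7 to 243.9 CPM of all reads in DMSO to 70.0 to 111.4 CPM in C646 (log2 fold change -1.07, adjusted p = 8.43e-04, edgeR). CD33 (-0.55, adjusted p = 0.00821) and FLT3 (0.62, adjusted p = 0.00556, edgeR) had adjusted p under 0.01 with smaller changes. The 10 markers of other cell types summed to 3.50 to 6.43 CPM in DMSO and 10.4 to 11.8 CPM in C646, and the T cell marker CD3E, the erythroid marker HBB, the epithelial marker CDH1 and the fibroblast marker COL1A2 were at 0 in every library. The fibroblast gene COL1A1 accounted for most of that increase, from 0.808 to 2.32 CPM in DMSO to 5.69 to 6.75 CPM in C646, and the part of other cells in the results was not tested. In such bulk RNA, fewer cells of a type and less RNA per cell cannot be told apart. No unlabelled library was analysed here, so the share of T > C reads due to sequencing error is unknown. The labels do not say that the libraries of a group came from separate cultures, so p-values measure the spread between these libraries, which may be technical.

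The core promoters of several members hold letters that the transcription factors of this network are known to bind, and each stretch below is shown because it holds such a match. Promoter sequences, from 250 bases before to 50 bases after each gene start, were taken from RefSeq (GRCh38.p14) and matched 7 of the 10 members, with no entry for CCND2, CCNE2 and CDK2. Both strands were searched for the E2F letters TTTGGCGC or TTTCGCGC, for the E-box CACGTG of MYC and related factors, and for the cyclic AMP response element TGACGTCA, through which CREB recruits CBP. These motifs do not overlap each other in the stretches shown, each of which is written 5′ to 3′ on the strand of the gene with the match in capitals.
CDC25A, chr3:48188443-48188472 (-), E2F letters: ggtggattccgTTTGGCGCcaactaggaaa
CCNA2, chr4:121823946-121823975 (-), cyclic AMP response element: gtcgccttgaaTGACGTCAaggccgcgagc
CDK4, chr12:57752510-57752537 (-), E-box: tgtcaagcggtCACGTGtgatagcaaca
CDK4, chr12:57752490-57752517 (-), E-box: tagcaacagatCACGTGgctgccatcgc
CDK4, chr12:57752395-57752422 (-), E-box: tgggtggcggtCACGTGcccagaacgtc
CDK6, chr7:92836527-92836554 (-), E-box: gaggccgcggaCACGTGcggagagccga
The E2F letters occurred in 1.15% of all 35116 promoters of the table, the E-box in 7.26% and the response element in 1.85%. Of the 10 promoter entries of the members, 1 held the E2F letters, 2 an E-box and 1 the response element. Whether the members hold more matches than other promoters was not tested. CDK4 held 3 E-boxes, all upstream of its start, and CDK6 held 1, downstream of its start. No match was found in the windows of CCND3, CCNE1 and CDKN1B. These matches describe the sequence alone, and binding was not measured.

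Each member was counted on its annotated 3′ UTR (GRCh38), and GENCODE release 44 places an exon and a UTR of that gene there. The counted regions were chr12:4300010-4305356 (+) for CCND2, chr6:41934933-41935939 (-) for CCND3 and chr19:29823778-29824317 (+) for CCNE1. Those of CCNE2 and CCNA2 were chr8:94880225-94881631 (-) and chr4:121816444-121817637 (-). The kinases were counted at chr12:55971626-55972789 (+) for CDK2, chr12:57747727-57748524 (-) for CDK4 and chr7:92604921-92615139 (-) for CDK6. CDC25A was counted at chr3:48157178-48158944 (-), and CDKN1B at chr12:12721036-12722382 (+) and at a second entry of 8 bases that added at most 4 reads per library. A read can only reveal labelling where it covers a T, and T made up between 25.6% of the 3′ UTR of CCND3 and 36.2% of that of CCNE2, the 8-base entry aside. No member shared its 3′ UTR with another gene on the same strand. On the opposite strand, annotated genes overlap the 3′ UTRs of CCNE2 (INTS8), CCNA2 (EXOSC9), CDK2 (PMEL) and CDK4 (TSPAN31). The library kit keeps the strand of the RNA, but whether counting used it is not given in the sources used here.

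New RNA of most members was lower in C646-treated cells. T > C reads were compared with edgeR's quasi-likelihood test, with library sizes taken from all reads on 3′ UTRs, and a gene was called at a Benjamini-Hochberg adjusted p of at most 0.01 and a log2 fold change of at least 1 in either direction. By this rule 7 of the 10 members fell and 0 rose, with a median log2 fold change of -1.74 over the 10. Among all 7722 genes tested, 33.0% fell and 2.97% rose, with a median of -0.83 and 82.9% of the genes below 0. The count of members is read against that background. The 3 C646 values lay below the 3 DMSO values, without overlap, in 8 of the 10 members and in 55.8% of the tested genes. All 10 members passed the filter on low counts.

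**Figure D1:**
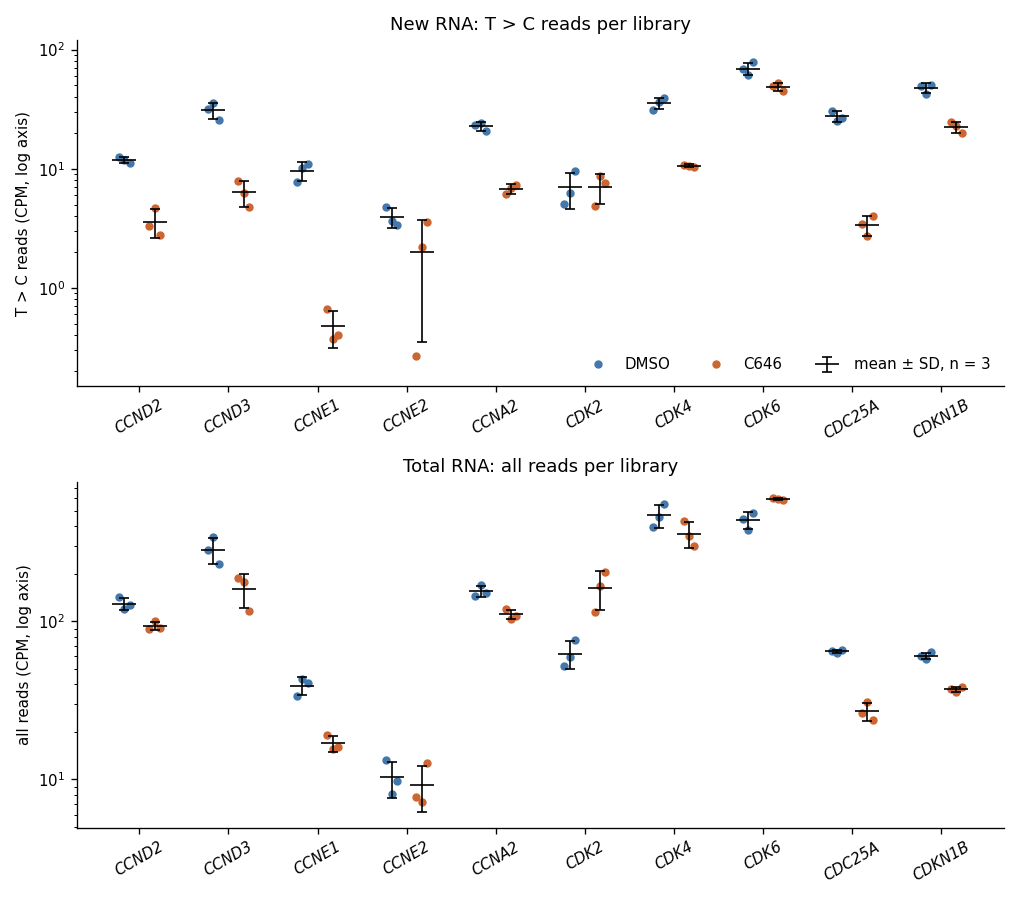
Levels of the 10 members in each library, in CPM on log axes, for T > C reads (upper panel) and all reads (lower panel); points are libraries, and bars give the mean ± SD (n = 3). In T > C reads CCNE1 and CDC25A show the widest gaps between DMSO and C646, whereas the groups of CDK2 overlap, and in all reads CDK2 lies higher in each C646 library.

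The D-type cyclins receive the mitogenic signals of the cell, and both that were followed fell. CCND2 was at 12.5, 11.9 and 11.2 CPM of T > C reads in DMSO replicates 1, 2 and 3 and at 3.31, 4.66 and 2.78 CPM in C646 replicates 1, 2 and 3. CCND3 was at 31.9, 35.5 and 25.7 CPM in DMSO and at 7.94, 6.25 and 4.76 CPM in C646. For neither gene did the groups overlap. The log2 fold change was -1.74 (SE 0.28, adjusted p = 7.52e-06, edgeR) for CCND2 and -2.31 (SE 0.22, adjusted p = 1.32e-09, edgeR) for CCND3.

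Of the E-type cyclins, which partner CDK2 at the entry into S phase, CCNE1 gave the largest change of the 10 members. In DMSO 73, 73 and 82 T > C reads of CCNE1 were counted, and in C646 only 5, 3 and 4, or 9.62 ± 1.73 CPM (SD, n = 3) against 0.475 ± 0.162 CPM (SD, n = 3). The level in C646 was thus 0.0494 times that in DMSO, and the log2 fold change of -4.32 (SE 0.42, adjusted p = 1.26e-09, edgeR) stood at percentile 0.311 of the tested genes. So few reads remained in C646 that the size of the fold is loosely set, with a 95% interval of -5.14 to -3.50 on the log2 scale.

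CCNE2, the paralogue of CCNE1, did not pass the test. It had 45, 26 and 25 T > C reads in DMSO and 2, 18 and 36 in C646, so that the groups overlapped and C646 replicate 1 lay far below its companions. The log2 fold change was -0.92 (SE 0.49, 95% interval -1.88 to 0.054, adjusted p = 0.115, edgeR). It was -0.42 (adjusted p = 0.404, edgeR) without C646 replicate 1 and -1.63 (adjusted p = 0.0128, edgeR) without C646 replicate 3. INTS8, whose counted 3′ UTR overlaps that of CCNE2 on the opposite strand, moved from 13.7 to 31.4 CPM of all reads in DMSO to 68.7 to 109.4 CPM in C646, and its part in the CCNE2 counts was not tested.

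Cyclin A, encoded by CCNA2, takes over CDK2 once S phase has begun. CCNA2 was at 23.2, 24.4 and 20.6 CPM of T > C reads in DMSO and at 6.08, 6.86 and 7.34 CPM in C646. Each C646 library lay well below each DMSO library, and the gene fell by 1.74 on the log2 scale (SE 0.22, adjusted p = 1.18e-07, edgeR). EXOSC9, whose counted 3′ UTR overlaps that of CCNA2 on the opposite strand, lay at 41.6 to 49.5 CPM of all reads in DMSO and 52.2 to 62.6 CPM in C646, and its part in the CCNA2 counts was not tested.

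The kinases, which need a cyclin partner to be active, did not move together. CDK4 was at 31.2, 36.0 and 39.2 CPM of T > C reads in DMSO and at 10.8, 10.5 and 10.3 CPM in C646, and fell with a log2 fold change of -1.75 (SE 0.19, adjusted p = 1.39e-08, edgeR). TSPAN31, opposite CDK4, lay at 5.41 to 10.9 CPM of all reads in DMSO and 7.80 to 17.2 CPM in C646, and its part in the CDK4 counts was not tested. CDK6 was at 68.4, 61.4 and 78.1 CPM in DMSO and at 49.1, 52.2 and 44.6 CPM in C646. The groups did not overlap, and the log2 fold change of -0.51 (SE 0.16, adjusted p = 0.00669, edgeR) passed the p cutoff but not the fold cutoff. This small change lost the p cutoff in 5 of the 6 fits with 1 library left out, where the adjusted p reached 0.0612 without DMSO replicate 3. CDK2 was at 5.06, 6.24 and 9.56 CPM in DMSO and at 4.89, 8.70 and 7.54 CPM in C646. The CDK2 groups overlapped fully, and the log2 fold change was 0.033 (SE 0.30, 95% interval -0.55 to 0.62, adjusted p = 0.934, edgeR).

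CDC25A and CDKN1B act on CDK2 in opposite directions, and both fell. CDC25A was at 30.7, 25.0 and 26.9 CPM of T > C reads in DMSO and at 3.44, 2.70 and 3.97 CPM in C646, a log2 fold change of -3.02 (SE 0.24, adjusted p = 1.59e-11, edgeR). CDKN1B was at 49.2, 42.4 and 50.8 CPM in DMSO and at 24.5, 22.9 and 19.9 CPM in C646, a log2 fold change of -1.08 (SE 0.17, adjusted p = 6.42e-06, edgeR). The activator of CDK2 thus lay at 0.122 times its DMSO level and the inhibitor at 0.473 times. In both genes the groups were apart.

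**Figure D2:**
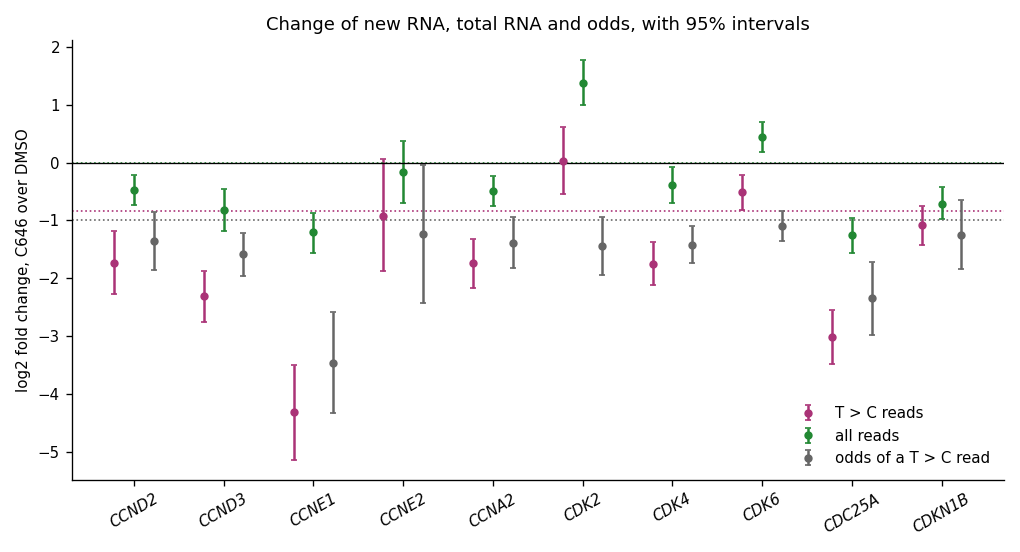
Log2 fold changes of the 10 members, C646 over DMSO, for T > C reads, all reads and the odds of a T > C read, with 95% intervals; the dotted lines give the median of all tested genes for each measure, -0.83, -0.0029 and -1.0. CCNE1 and CDC25A lie lowest in T > C reads and in odds, and CDK2 is the member whose interval for all reads lies wholly above 0.5.

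How many members passed both cutoffs depended on how libraries were scaled, whereas their distance from the median of all tested genes hardly changed. Scaling by the T > C reads themselves moved the log2 fold changes of all genes up by a median of 0.83, and sets each gene against the other new transcripts of its library. CCNE1 (-3.50), CDC25A (-2.19) and CCND3 (-1.47) remained called under this scaling, with adjusted p between 1.43e-08 and 7.99e-06 in edgeR. CCNA2 (-0.91, adjusted p = 0.00151) and CDK4 (-0.91, adjusted p = 4.94e-04, edgeR) passed the p cutoff and missed the fold cutoff. CCND2 (-0.90, adjusted p = 0.0145) and CDKN1B (-0.25, adjusted p = 0.303, edgeR) passed neither, CDK6 turned from -0.51 to 0.33 and CDK2 stood at 0.86 (adjusted p = 0.0229, edgeR). Of the 7847 genes tested under this scaling, 596 (7.60%) fell and 717 (9.14%) rose, with a median of 0.011, against 2548 and 229 with library sizes from all reads. Relative to the bulk of new mRNA, then, 3 members fell and 0 rose.

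**Figure D3:**
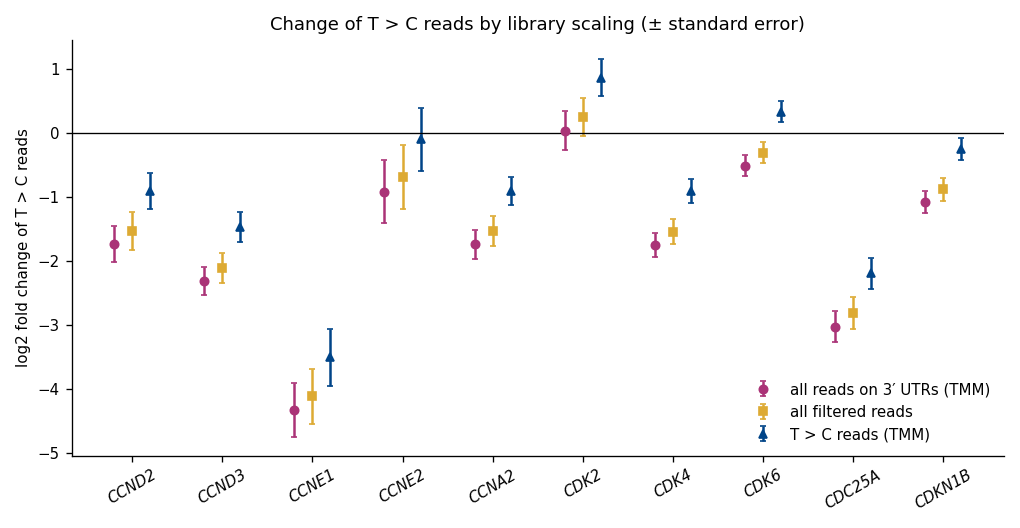
Log2 fold changes of T > C reads of the 10 members under 3 library scalings, with standard errors: by all reads on 3′ UTRs, by all filtered reads and by the T > C reads themselves. CCNE1, CDC25A and CCND3 stay at or below -1.47 under each, whereas CDK6 lies on either side of 0.

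Ratios of the T > C reads of 2 genes within a library need no scaling, and 4 pairs of related members were compared by a two-sided exact permutation test. With 3 libraries per group its smallest possible p is 0.1. The log2 ratio of CDK4 to CDK6 was -1.13, -0.77 and -0.99 in DMSO and -2.17, -2.30 and -2.11 in C646, a difference of -1.23 without overlap (exact p = 0.1). The log2 ratio of CDC25A to CDKN1B was -0.68, -0.76 and -0.91 in DMSO and -2.81, -3.06 and -2.31 in C646, a difference of -1.94 without overlap (exact p = 0.1). In new RNA both CDK4 against CDK6 and CDC25A against p27 were thus lower in each C646 library than in each DMSO library. The ratio of CCND2 to CCND3 differed by 0.56 (exact p = 0.2) with overlap between the groups. For CCNE1 to CCNE2 the difference was -2.71 (exact p = 0.2), again with overlap, and it was -4.00 without C646 replicate 1, in which CCNE2 had 2 T > C reads, and -1.92 without C646 replicate 3. After Benjamini-Hochberg adjustment over the 4 pairs, each of these exact permutation p-values was 0.2.

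**Figure D4:**
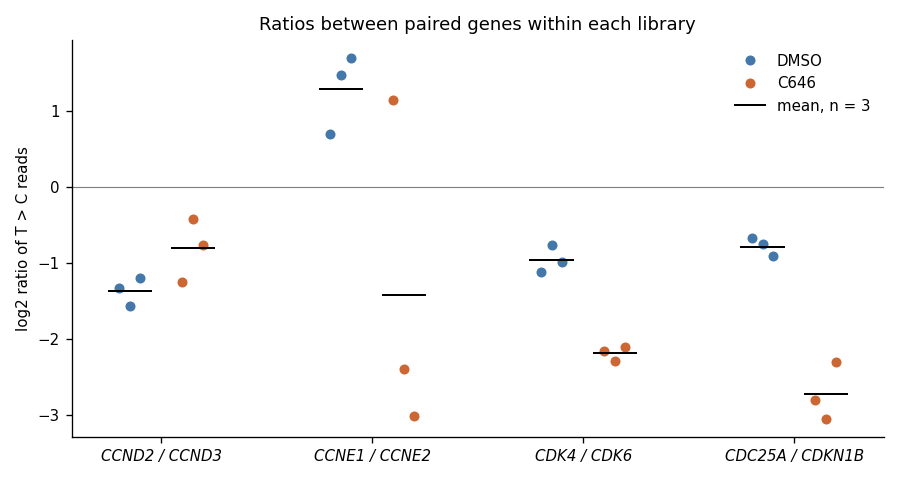
Log2 ratios of T > C reads between paired members within each library (0.5 added to each count); points are libraries and black lines are group means (n = 3). The groups are apart for CDK4 to CDK6 and for CDC25A to CDKN1B and overlap for the 2 pairs of cyclins.

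Total mRNA of the members differed in both directions after 2 h. In all reads 2 members fell, 1 rose and the median over the 10 was -0.48. Among the 10835 genes tested, 1.87% fell and 5.92% rose, with a median of -0.0029. All C646 values were below all DMSO values in 6 members and in 23.1% of the tested genes. CCNE1 was at 33.6, 43.4 and 40.5 CPM of all reads in DMSO and at 19.2, 15.6 and 16.0 CPM in C646, and fell by 1.21 on the log2 scale (SE 0.18, adjusted p = 2.56e-04, edgeR). CDC25A was at 65.3, 62.8 and 65.7 CPM in DMSO and at 26.5, 30.8 and 23.7 CPM in C646, and fell by 1.26 (SE 0.15, adjusted p = 6.83e-05, edgeR). The cyclin and the phosphatase that fell most in new RNA were also the 2 members called lower in all reads. All reads include the T > C reads, so the 2 measures are not independent.

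CDK2 rose. Its level in all reads was 51.9, 59.6 and 75.8 CPM in DMSO and 114.9, 167.3 and 204.9 CPM in C646, 2.60 times as high on average, with a log2 fold change of 1.38 (SE 0.20, adjusted p = 2.33e-04, edgeR). The increase lay in reads without T > C conversions, which went from 55.5 ± 9.89 CPM (SD, n = 3) to 155.3 ± 43.8 CPM (SD, n = 3), whereas its T > C reads overlapped between the groups. PMEL, annotated opposite the 3′ UTR of CDK2, had no counted 3′ UTR there and lay at 0.105 to 0.539 CPM in DMSO and 0.132 to 0.490 CPM in C646. CDK2 kept its call in all 6 fits with 1 library left out, with log2 fold changes of 1.18 to 1.59.

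CCND3 (-0.82, SE 0.18, adjusted p = 0.00427, edgeR) and CDKN1B (-0.71, SE 0.14, adjusted p = 0.00217, edgeR) passed the p cutoff in all reads but not the fold cutoff. The remaining members did not pass either: CCND2 gave -0.47 (adjusted p = 0.0152), CCNA2 -0.49 (adjusted p = 0.0115), CDK4 -0.39 (adjusted p = 0.0799), CDK6 0.45 (adjusted p = 0.0189) and CCNE2 -0.16 (adjusted p = 0.693) in edgeR. CDK6 had 445.7, 378.0 and 484.4 CPM of all reads in DMSO and 603.9, 594.2 and 584.3 CPM in C646, without overlap. Its reads without T > C conversions went from 366.8 ± 45.8 to 545.5 ± 8.15 CPM (SD, n = 3), C646 being the higher. CDK4, its partner in binding D-type cyclins, overlapped between the groups, with 396.3 to 548.5 CPM in DMSO and 298.4 to 428.4 CPM in C646. 

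The share of a gene's reads that are T > C reads is higher the more of its mRNA was made within the last 1 h, and the members differed widely in it before any treatment. In DMSO, 78.7% of the CDKN1B reads were T > C reads, at percentile 99.5 of the tested genes, whose median was 13.4%. CDC25A followed with 43.0%, CCNE2 with 37.5% and CCNE1 with 24.4%. CDK6 (15.8%) and CCNA2 (14.7%) lay near the median, and CCND3 (11%), CDK2 (11%), CCND2 (9.12%) and CDK4 (7.62%, percentile 23.6) below it. Most reads of p27 mRNA in DMSO-treated cells thus carried a conversion, and few of those of CDK4 did. The part of sequencing error or of sequence variants in these shares was not tested. The shares pool the 3 DMSO libraries and also depend on how many T positions a read covers.

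**Figure D5:**
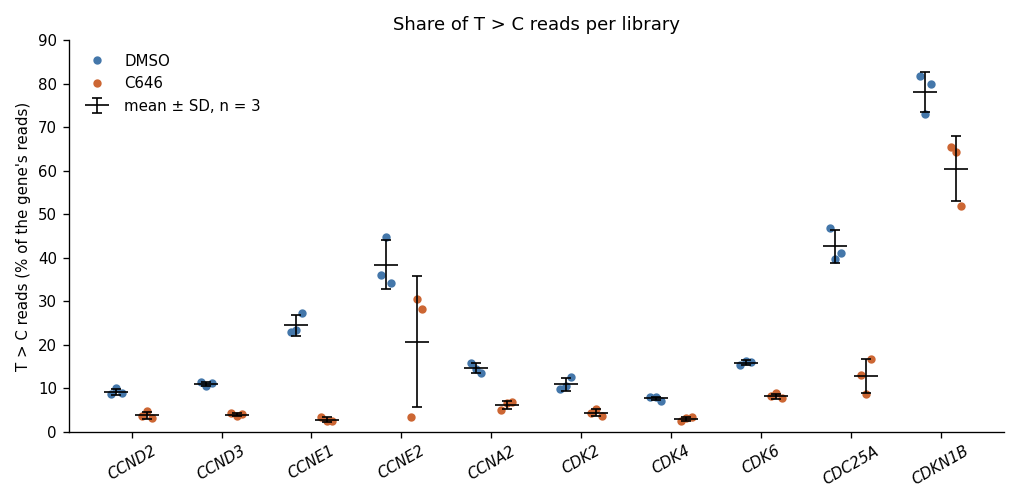
Share of T > C reads among the reads of each member, in percent, per library, with the mean ± SD (n = 3). CDKN1B stands highest in both groups, and in each member the 3 C646 libraries lie below the 3 DMSO libraries, with CCNE2 of C646 replicate 1 at 3.39%.

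Under C646 the share was lower in each C646 library than in each DMSO library for all 10 members, as for 64.5% of all tested genes. The odds of a T > C read were tested within each gene against its other reads, in an edgeR model that needs no scaling between libraries. The odds fell in 9 members and rose in 0, where 38.3% of the tested genes fell and 0.790% rose, and the medians were -1.40 over the members and -1.0 over all tested genes. CCNE1 went from 22.9, 23.3 and 27.2% in DMSO to 3.45, 2.36 and 2.48% in C646, a log2 odds change of -3.46 (SE 0.45, adjusted p = 1.11e-06, edgeR). CDC25A went from 46.9, 39.7 and 41.0% to 13.0, 8.76 and 16.7%, a log2 odds change of -2.35 (SE 0.32, adjusted p = 2.60e-06, edgeR). In these 2 genes the drop was the steepest of the 10 members, at percentiles 0.777 and 6.19 of the tested genes.

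The D-type cyclins, CCNA2 and the kinases lay closer together, with log2 odds changes between -1.59 for CCND3 and -1.09 for CDK6, all called in edgeR with adjusted p of at most 1.08e-04. CDK2 went from 9.76, 10.5 and 12.6% in DMSO to 4.26, 5.20 and 3.68% in C646, and its odds fell by 1.44 on the log2 scale (SE 0.25, adjusted p = 5.35e-05, edgeR). A rise in all reads with a fall in odds, as in CDK2, was found in 155 of the 7722 tested genes (2.01%). CDKN1B went from 81.8, 73.0 and 79.9% to 65.4, 64.3 and 51.9%, a log2 odds change of -1.25 (SE 0.31, adjusted p = 0.00134, edgeR). Even under C646, then, most p27 reads were T > C reads. The CDKN1B call was lost without DMSO replicate 1 (-1.10, adjusted p = 0.0190), DMSO replicate 3 (-1.19, adjusted p = 0.0137) or C646 replicate 3 (-0.98, adjusted p = 0.00795, edgeR). CCNE2 was not called, at -1.23 (SE 0.61, adjusted p = 0.0808, edgeR), and stood at -0.57 without C646 replicate 1.

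The reads of CDKN1B without T > C conversions stood at 13.1 ± 2.37 CPM for DMSO and 14.7 ± 3.23 CPM for C646 (SD, n = 3 each), with overlap. In 5 members and in 18.9% of the tested genes such reads were lower in C646 without overlap, at 0.556 times the DMSO level for CCNE1, 0.610 for CCND3, 0.636 for CDC25A, 0.765 for CCND2 and 0.782 for CCNA2. CDK4 and CCNE2 overlapped as p27 did, and CDK2 and CDK6 were higher, as given above. T > C reads also carried fewer conversions in C646, 1.87 to 1.91 per read over all genes against 2.00 to 2.11 in DMSO. CCND2 went from 2.10 ± 0.314 to 1.37 ± 0.212 conversions per T > C read under C646 (SD, n = 3), and CDKN1B from 2.87 ± 0.107 to 2.25 ± 0.139 (SD, n = 3). CCND3, CCNA2, CDK4 and CDK6 were likewise lower without overlap, which makes 6 of the 10 members beside 24.3% of the tested genes. The groups overlapped in CDC25A, CDK2, CCNE1 (means of 2.21 and 2.42) and CCNE2 (means of 2.62 and 2.71), the last 2 with few T > C reads in C646. The part of 4sU uptake in the lower T > C reads was not tested.

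The share of T positions read as C, per covered T, repeats the order of the members by share of T > C reads at its top end. It was 6.39% ± 0.280 (SD, n = 3) for CDKN1B, 3.55% ± 0.395 for CDC25A and 2.49% ± 0.321 for CCNE2 in DMSO, and 3.79% ± 0.698, 0.983% ± 0.403 and 1.64% ± 1.40 in C646. The C646 libraries lay below those of DMSO without overlap in 9 of the 10 members, CCNE2 being the exception, and in 65.5% of the tested genes.

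Genes that act with or on the members were taken from 6 lists of 58 genes. Of these, 43 could be tested in T > C reads, 20 fell, 0 rose and the median log2 fold change was -1.0, beside 33.0% lower, 2.97% higher and a median of -0.83 among all tested genes. With the T > C reads scaled by themselves, 45 could be tested, 9 fell, 4 rose and the median was -0.16, beside 7.60% lower, 9.14% higher and a median of 0.011 among all genes tested that way. In all reads 53 were tested, 1 fell and 4 rose, with a median of -0.0021, beside 1.87% lower and 5.92% higher among all genes.

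Of the pocket proteins and E2F factors, 4 of 10 tested genes fell and 0 rose in T > C reads, with a median of -0.94, near the 33.0% lower and the median of -0.83 of all tested genes, whereas 0 fell and 2 rose, RB1 and RBL2, when T > C reads were scaled by themselves. E2F1, an activator of S phase genes, fell from 10.9 ± 3.61 to 3.02 ± 0.452 CPM (SD, n = 3), and E2F4, which represses with pocket proteins in resting cells, from 7.97 ± 1.54 to 2.31 ± 0.449 CPM (SD, n = 3). The log2 fold changes were -1.83 (adjusted p = 1.30e-05) and -1.79 (adjusted p = 4.98e-05, edgeR). The pocket protein gene RBL1 fell (-1.12, adjusted p = 0.00678), and E2F8 did not pass (-1.17, adjusted p = 0.0790, edgeR). RB1, the substrate of the cyclin D kinases, was named after its values were seen: in all reads its log2 fold change was 1.38 (SE 0.25, adjusted p = 0.00124, edgeR), a rise, while in T > C reads it was 0.23 (adjusted p = 0.547, edgeR).

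Of the S phase genes that E2F factors drive, 5 of 12 fell and 0 rose in T > C reads, with a median of -0.86, which is again near the 33.0% and -0.83 of all tested genes. Scaled by the T > C reads, 2 fell (RRM2 and TYMS) and 1 rose (SLBP, the histone stem-loop binding protein), with a median of -0.028. RRM2, a subunit of ribonucleotide reductase, fell from 58.7 ± 9.70 to 11.7 ± 2.05 CPM (SD, n = 3; log2 fold change -2.34, adjusted p = 3.71e-11, edgeR). The nucleotide synthesis genes TK1 (-2.22, SE 0.60, adjusted p = 0.00276) and TYMS (-1.99, adjusted p = 6.79e-06) and the chromatin assembly factor CHAF1A (-1.48, adjusted p = 2.41e-04, edgeR) fell as well. In all reads 0 of the 12 were called in either direction.

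Among the other cyclins and CDKs of the cell cycle, 3 of 5 tested genes fell and 0 rose, beside 33.0% and 2.97% of all tested genes. With T > C reads scaled by themselves, 2 of 6, CCNF and CCNB1, fell, beside 7.60% of all genes tested that way. Whether so short a list differs from these shares was not tested. CCNF, whose product directs a ubiquitin ligase, had 59, 67 and 62 T > C reads in DMSO and 3, 5 and 1 in C646 (adjusted p = 1.39e-08, edgeR). The mitotic cyclin CCNB1 fell from 15.4 ± 4.26 to 1.93 ± 0.679 CPM (SD, n = 3; log2 fold change -2.97, adjusted p = 4.88e-09, edgeR), and its kinase CDK1 fell too (-1.76, adjusted p = 2.24e-06, edgeR). CCNB2 did not pass, at -0.62 (adjusted p = 0.0707, edgeR).

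Of the kinases and phosphatases that act on CDKs, 3 of 4 tested genes fell and 0 rose, beside 33.0% and 2.97% of all tested genes. When T > C reads were scaled by themselves, 2 of 5, CDC25B and WEE1, fell, beside 7.60% of all genes tested that way. Whether so short a list differs from these shares was not tested. CDC25B, a relative of CDC25A, gave -2.78 (SE 0.46, adjusted p = 1.16e-05), and the inhibitory kinases PKMYT1 and WEE1 gave -2.47 (SE 0.55, adjusted p = 4.11e-04) and -2.03 (adjusted p = 1.44e-06, edgeR). CDC25B had 4, 6 and 11 T > C reads in C646 and PKMYT1 9, 4 and 3, so that their folds are loosely set. CHEK1, which marks CDC25A for destruction, gave -0.87 (adjusted p = 0.0889, edgeR). Both activators and inhibitors of CDKs were therefore among those that fell. CCNH and MNAT1, partners of the CDK-activating kinase CDK7, rose in all reads (1.80, adjusted p = 1.57e-04, and 3.01, adjusted p = 6.16e-04, edgeR) and were named after their values were seen.

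Of the other CDK inhibitors, 2 of 3 tested genes fell, beside 33.0% of all tested genes. CDKN2D alone fell when T > C reads were scaled by themselves, beside 7.60% of all genes tested that way. Whether so short a list differs from these shares was not tested. CDKN2D, which binds CDK4 and CDK6, fell from 8.92 ± 0.910 to 2.00 ± 1.01 CPM (SD, n = 3; log2 fold change -2.14, adjusted p = 9.02e-06, edgeR). CDKN1A, encoding p21, fell from 88.2 ± 4.90 to 44.1 ± 3.97 CPM (SD, n = 3; log2 fold change -1.0, adjusted p = 3.09e-06, edgeR), right at the fold cutoff. CDKN2C gave -0.75 (adjusted p = 3.46e-04, edgeR), inside it.

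Of the ubiquitin ligase parts that act on cyclins, p27 or CDC25A, 3 of 9 tested genes fell and 0 rose, a share like the 33.0% of all tested genes, with a median of -0.60, and with T > C reads scaled by themselves 2 fell (FBXO31 and FBXW7) and 1 rose (CKS2), with a median of 0.22. FBXW7, which marks cyclin E, fell from 20.9 ± 4.09 to 4.44 ± 1.74 CPM (SD, n = 3; log2 fold change -2.21, adjusted p = 4.76e-08, edgeR). FBXO31, which marks cyclin D1, had 41, 39 and 32 T > C reads in DMSO and 4, 0 and 4 in C646 (adjusted p = 4.93e-06, edgeR). The ring protein RBX1 fell (-1.29, adjusted p = 1.95e-04) and FBXW11 did not pass (-1.46, adjusted p = 0.0181, edgeR). In all reads FBXO31 fell (-1.76, adjusted p = 5.72e-05) and FBXO4 rose (1.25, adjusted p = 0.00111, edgeR), the latter named after its value was seen.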

How the data were processed

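RNA of MOLM-13 cells was alkylated, and 3′ end libraries were sequenced and, per the labels, processed with CASAVA 1.9 and slamdunk v0.4.1 on GRCh38. The authors deposited 1 table per library with raw counts, not normalized, of reads, T > C reads, conversions and multimapped reads on 58136 3′ UTR entries. These T > C reads include reads with a single conversion, whereas the study's methods tested reads with more than that. They also deposited a signal, the coverage of T positions, the reads as CPM of all filtered reads and the conversion rate as a fraction. The deposited number of T bases is 0 throughout the table of C646 replicate 3 and was read from GRCh38. Between 7252597 and 10225448 reads per library limit the precision, and PCR copies of 1 molecule cannot be told from separate molecules.

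Counts were summed per Entrez identifier, and symbols matched 99.6% of the 25420 genes. Genes kept by filterByExpr were tested with edgeR 4.0.16 (glmQLFit, glmQLFTest; R 4.3.3) and Benjamini-Hochberg adjustment over all of them. T > C reads were scaled by TMM-adjusted totals of all reads, and CPM in the text use the same totals. The odds model held a term for each library and tested the interaction of T > C state with treatment. Standard errors follow from the log2 fold change and the root of its F statistic. The fits were tested on simulated data. Alternatives were other scalings, DESeq2 1.42.0, other filters, the single entry with the most reads, a replicate block and leaving out single libraries; scaling by all filtered reads was added after seeing the data. Summaries and plots used scipy 1.17.1, numpy 2.4.6, pandas 2.3.3 and matplotlib 3.10.9 in Python 3.11.15.

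The members and gene lists were chosen with earlier results of these data known. All 10 members are named, and from each list up to 4 tested genes with the largest absolute log2 fold change of T > C reads. Folds of CCNF and FBXO31 are not given because in each a C646 library held at most 1 T > C read. RBL2, SLBP, CKS2, FBXO4, RB1, CCNH and MNAT1 fall outside this rule and were named after their values were seen.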

Additional observations from a re-analysis of the deposited data

How the results depend on the processing

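The number of members that fell in T > C reads, 7, was 3 when TMM was run on T > C reads and 3 in DESeq2 when size factors came from T > C reads. The genes that fell then numbered 596 and 565 in place of 2548, and those that rose 717 and 660 in place of 229. With a mean of at least 50 T > C reads, 1038 genes fell and 125 rose. CDK6 stood at 0.33 and 0.30 under the T > C scalings. Scaling by all filtered reads, added after seeing the data, gave 90 lower and 1014 higher genes in all reads and a CCNE2 change of 0.05 in all reads, and CDKN1B was at -0.88 in T > C reads, short of the fold cutoff. With 1 library left out, 119 (without DMSO replicate 2) to 319 (without C646 replicate 1) genes fell in all reads in place of 203. CDK2 ranged from -0.16 to 0.33 in T > C reads and CCNE2 from -0.47 to 0.06 in all reads, both on either side of 0. The cause of these shifts was not tested.

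Same-numbered DMSO and C646 libraries had correlations of their deviations from the group means of 0.0299 to 0.0655 in T > C reads and -0.00136 to 0.231 in all reads, so the numbers were not taken as pairs. With the replicate block, 7 members fell in T > C reads (2586 genes lower, 226 higher), 2 fell and 1 rose in all reads (232 and 700 genes), and the odds of 9 fell (2762 and 57 genes). Of 348 alternative values of single members, 328 kept their direction and their call (or lack of one) by both cutoffs together. Some of these crossed the p cutoff alone, CDK6 in T > C reads among them. CCNE1, CCNE2 and CDK2 had fewer than 100 T > C reads in each library. So did CCND2, CCND3, CCNA2 and CDC25A in each C646 library. Such counts limit the precision of their values.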

Other observations

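INTS8, a subunit of the Integrator complex that lies opposite CCNE2, rose in all reads with a log2 fold change of 1.77 (adjusted p = 2.53e-04, edgeR's quasi-likelihood test). It was singled out after its values were seen.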
